A study of Gallus gallus with 5 samples.

Results

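Solute carriers are the membrane proteins that move amino acids, sugars, ions, metals, vitamins and metabolites across the plasma membrane and the membranes of organelles, and their symbols carry the family number (SLC7A5 is the fifth member of family 7). Some exchange a solute on the inside for another on the outside, and some draw on the sodium or proton gradient. Nearly all of family 25 sit in mitochondria, mostly in the inner membrane. There they supply the matrix with phosphate, nucleotides and metabolites. In proliferating lymphoid cells they are known for amino acid uptake, lactate export and the exchange of ADP for ATP. The genes described here are all those whose RefSeq accession in the count files maps to a chicken symbol of SLC followed by a digit, without SLC7A11. They number 179 genes in 40 families, out of 16143 distinct features. SLC9A3R1 and SLC9A3R2 match this pattern although they encode scaffold proteins that bind exchangers and are not carriers themselves.

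The RNA came from DT40, a chicken B-cell lymphoma line, in cells labelled as a CAP-H knockout. CAP-H is the kleisin subunit of condensin I, which compacts chromosomes. The 2 libraries labelled CAP-H off (replicates 1 and 3) came from cells given 100 ng/ml doxycycline for 36 h, and the 3 labelled CAP-H on (replicates 1, 2 and 3) from the same knockout cells without it. The labels do not say how doxycycline switches CAP-H, whether the line is a single clone or whether each replicate was its own culture, so the p-values reflect the spread among 5 libraries and that spread may be technical. No library had doxycycline with CAP-H kept on, so an effect of the drug and an effect of losing CAP-H cannot be told apart.

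Total counts were 13501033 and 12199522 in the CAP-H off libraries and 12311777 to 22533003 in the CAP-H on libraries. Log2 levels correlated at 0.989 between the CAP-H off libraries and at 0.993 to 0.994 between the CAP-H on libraries. A chi-square of replicate differences against counting noise averaged 11 per feature for the CAP-H off pair. For the CAP-H on pairs it was 3.28 to 5.09, while the test assumed the same spread in both groups. NCAPH, the gene of CAP-H, matched 0 rows, so the labels could not be checked by it. An unidentified RNA, XR_140315.1 on chromosome 22, had 185556 and 175268 counts in the CAP-H off libraries and 208 to 406 in the CAP-H on libraries, and directions below rest on the labels as given. Of 10 B-cell markers 8 were matched by symbol and all 8 were tested. Of these 2 rose and 3 fell, with summed levels of 979.7 and 1031 CPM (counts scaled to a common library size) in the CAP-H off libraries and 1073 to 1124 CPM in the CAP-H on libraries. Of 6 macrophage and granulocyte markers 5 were tested and 4 of them fell, with summed levels of 127 CPM in each CAP-H off library and 175 to 187 CPM in the CAP-H on libraries. Of the T-cell markers 2 were tested and 0 called, and CD28 had at most 4 counts. The T-cell markers summed to 104 and 105 CPM in the CAP-H off libraries and 88.3 to 98.9 CPM in the CAP-H on libraries. Of the fibroblast markers 1 was tested and 0 called, and DCN and COL3A1 had at most 4 counts. The fibroblast markers summed to 31.9 and 34.4 CPM in the CAP-H off libraries and 30.5 to 35.5 CPM in the CAP-H on libraries. Of the erythroid markers 1 was matched by symbol and 0 were tested. Among all tested features 22.6% rose and 23.7% fell. The part of these markers in the results below was not tested, and in bulk RNA fewer cells of a type and less RNA per cell cannot be told apart.

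Of the 179 solute carrier genes, 111 had enough counts to be tested. The other 68 never exceeded 18 counts in a library, and 24 of them stood at 1, the smallest value in the files, in all 5 libraries. A value of 1 was taken as no read, and a count of 0 reads allows up to 3 counts, or 0.141 to 0.260 CPM depending on the library. Detection differed between families. In the mitochondrial family 25, 23 of 24 genes were tested, and in family 35, which holds the nucleotide sugar carriers, 13 of 16. In family 6, which holds the neurotransmitter and sodium-coupled amino acid carriers, 3 of 13 were tested. None (0) of the 4 genes of family 13 was. Within the glutamate and neutral amino acid family 1, SLC1A4 was tested, whereas SLC1A1, SLC1A2, SLC1A3 and SLC1A7 had at most 8 counts. Of the ADP/ATP exchangers, SLC25A6 was tested and SLC25A4 had 2 counts in each CAP-H off library and 1 or 2 in the CAP-H on libraries.

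Among the 111 tested genes, 22 rose and 23 fell in the CAP-H off libraries, and 66 did not pass an adjusted p of 0.05 by edgeR's quasi-likelihood test over all 10079 tested features. These are 19.8% and 20.7% of the tested carriers, against 22.6% and 23.7% of all tested features (40.5% and 46.3% in either direction), shares that lie near each other and whose difference was not tested. Their median log2 fold change (CAP-H off minus CAP-H on, as throughout) was 0.04 and the median of all features was 0.00. The middle of the distribution ran from -0.24 to 0.23 (quartiles), and that of all features from -0.26 to 0.27. Changes of at least 2-fold past the threshold were found in 1 carrier that rose and 6 that fell, or 6.31% of those tested, where 6.18% of all features changed so (3.49% higher and 2.69% lower). The groups did not overlap in 65 of the 111 carriers (58.6%), 35 of them higher and 30 lower, and in 64.9% of all features (32.1% higher and 32.9% lower). With scaling by library size alone the median of all features moved to -0.18. There 12 of the 111 carriers rose and 36 fell, and 1272 of the 10079 features rose and 4119 fell. A rise or fall here is thus relative to the median feature.

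**Figure D1:**
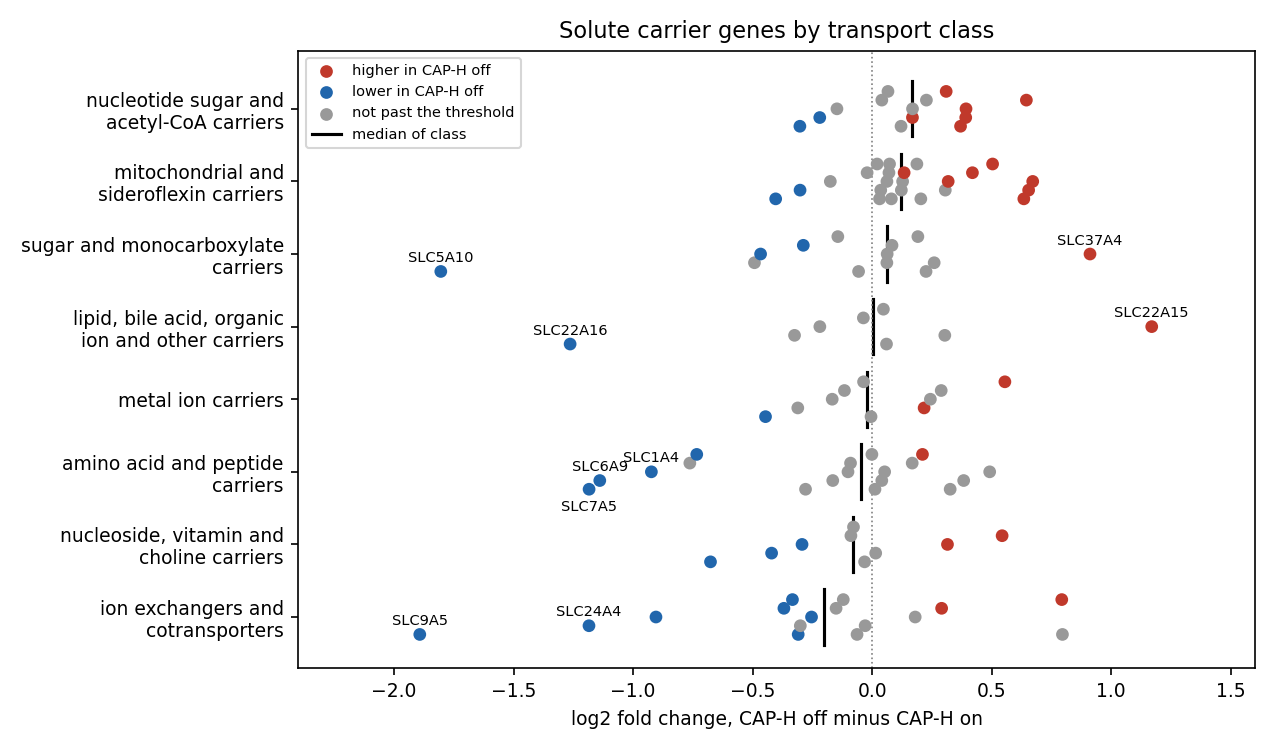
Log2 fold change (CAP-H off minus CAP-H on) of the 111 tested solute carrier genes, 1 point per gene, in rows by transport class, with red for genes that rose, blue for genes that fell, grey for genes past no threshold and a black bar at the class median. Class medians run from -0.20 for ion exchangers and cotransporters to 0.17 for nucleotide sugar and acetyl-CoA carriers, and most of the points beyond 1 on either side are falls.

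Amino acid carriers of the plasma membrane included some of the largest falls. Of 41 genes in the amino acid and peptide class, 18 were tested, 4 fell, 1 rose and 13 did not pass, with a median of -0.05. Of all tested features 23.7% fell and 22.6% rose. The 4 carriers that fell carry large neutral, small neutral and cationic amino acids and glycine. With scaling by library size alone 7 genes of the class fell and 0 rose, as did 4119 and 1272 of all 10079 features.

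SLC7A5, the light chain of the exchanger for large neutral amino acids such as leucine (chromosome 11, 17422476 to 17461166 on galGal4), stood at 453 and 526 CPM in the CAP-H off libraries, against 1130 (replicate 1), 1098 and 1108 CPM in the CAP-H on libraries. The groups lay far apart, and the 3 CAP-H on libraries were close together. Its log2 fold change was -1.18 (SE 0.06, adjusted p = 2.8e-10), a level 2.27-fold lower. SLC6A9, a sodium-coupled glycine carrier (chromosome 8, 19281281 to 19296650), had 62.1 and 79.5 CPM in the CAP-H off libraries, against 152, 160.1 and 155 CPM in the CAP-H on libraries. The log2 fold change was -1.14 (SE 0.08, adjusted p = 1.1e-08), and CAP-H off replicate 1 was the lowest library for this gene, as it was for SLC7A5. SLC1A4, which exchanges alanine, serine and cysteine (chromosome 3, 9807199 to 9830983), had 127 and 143 CPM in the CAP-H off libraries, against 256, 259.8 and 251 CPM in the CAP-H on libraries, a change of -0.92 (SE 0.07, adjusted p = 3.2e-08). SLC7A1, a carrier of arginine and lysine (chromosome 1, 174708372 to 174726954), had 45.9 and 46.2 CPM in the CAP-H off libraries, against 77.1, 76.1 and 76.6 CPM in the CAP-H on libraries. Its replicates lay close together in either group, and it fell by 0.73 (SE 0.06, adjusted p = 1.5e-07).

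Summed over the class, amino acid and peptide carriers came to 1156 and 1249.5 CPM in the CAP-H off libraries, against 2066, 2051 and 2047 CPM in the CAP-H on libraries. Without the 4 genes that fell the sums were 468 and 455 CPM in the CAP-H off libraries, against 451, 457 and 456 CPM in the CAP-H on libraries. The 4 genes were picked by their falls, so the sums describe where the drop in the class lies and test nothing. They held 59.5% and 63.6% of the class total in the CAP-H off libraries and 77.7% to 78.2% in the CAP-H on libraries.

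The glutamine carrier SLC38A1 had 129 and 120.2 CPM in the CAP-H off libraries, against 136, 132 and 132 CPM in the CAP-H on libraries, a change of -0.10 (SE 0.05) that did not pass (adjusted p = 0.13). SLC15A4, a lysosomal carrier of histidine and peptides, had 91.3 and 95.01 CPM in the CAP-H off libraries and 88.2, 93.3 and 96.4 CPM in the CAP-H on libraries, with groups that overlapped. SLC38A9, the lysosomal arginine sensor of the mTORC1 pathway, had a change of 0.17 (SE 0.10), which did not pass (adjusted p = 0.21). The leucine carrier SLC43A2 had -0.28 (SE 0.12, adjusted p = 0.062). The gene that rose, SLC43A3, belongs to that family by number but in mammals carries purine nucleobases. It had 117 and 115 CPM in the CAP-H off libraries and 97.4, 101 and 103 CPM in the CAP-H on libraries (0.21, SE 0.05, adjusted p = 0.0035). It overlaps another feature, and leaving out CAP-H off replicate 1 ended the call (0.19, adjusted p = 0.060). The other members that did not pass, SLC6A2, SLC6A18, SLC7A9, SLC7A10, SLC17A5, SLC17A9, SLC36A1, SLC36A4 and SLC38A6, stood under 20 CPM on average in both groups.

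**Figure D2:**
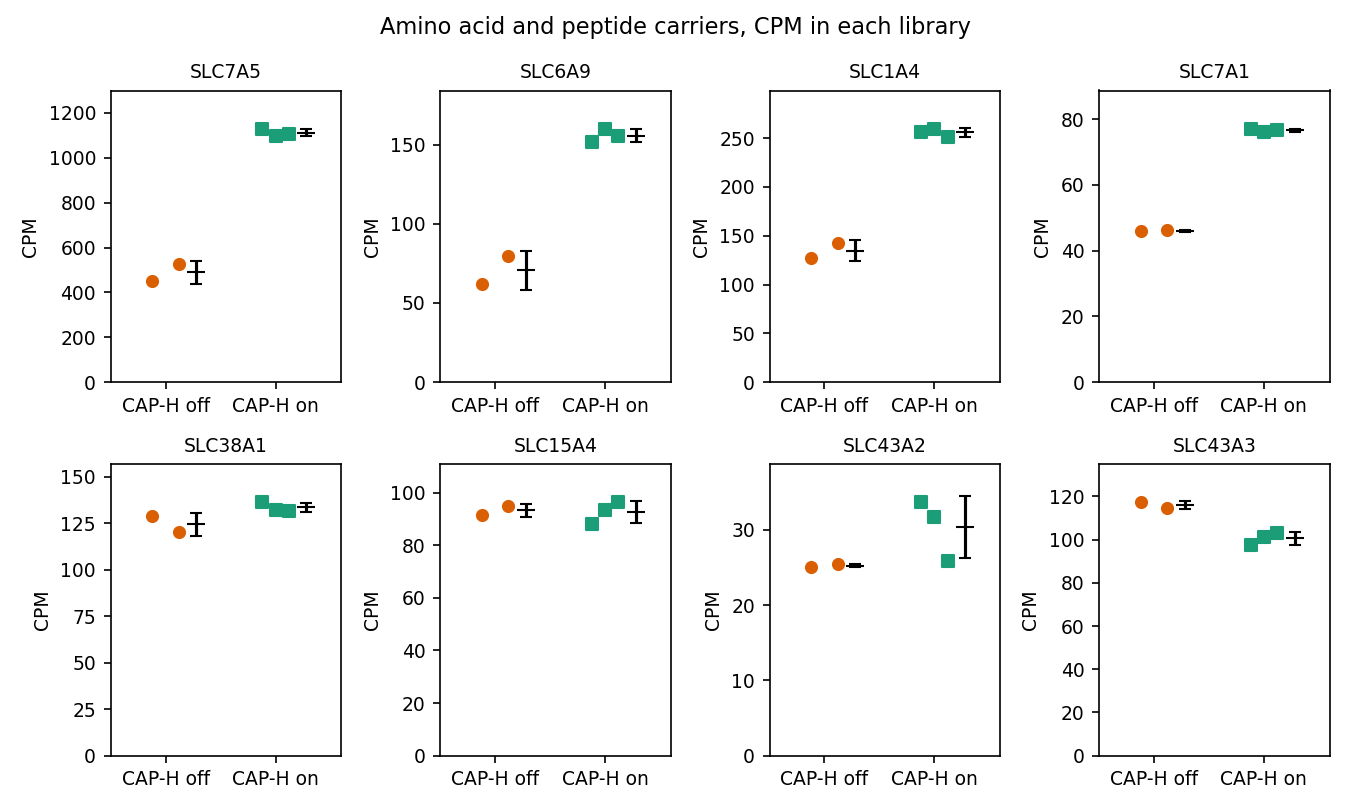
CPM in each library for 8 amino acid and peptide carriers, 1 panel per gene with its own axis from 0, orange circles for the 2 CAP-H off libraries, green squares for the 3 CAP-H on libraries and black bars for mean ± SD. SLC7A5, SLC6A9, SLC1A4 and SLC7A1 show separate groups, SLC38A1 and SLC43A2 show small gaps between groups, and the groups of SLC15A4 overlap.

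All 4 of these falls belong to a list of 9 carrier genes that are known in mammals as targets of ATF4, the transcription factor of the amino acid response. Of the 9, 4 were matched by symbol, and those 4 were tested and fell. Only 8905 of 17036 rows matched a symbol, so the rest of the list may stand among the unmatched rows. The list was drawn up with falls of ATF4 targets in these data already known, so it is not independent evidence. ATF4 itself had a mean of 300.3 CPM in the CAP-H off libraries and 538 CPM in the CAP-H on libraries (-0.84, SE 0.06, adjusted p = 1.3e-08). Of 5 tested genes of amino acid sensing and the ATF4 response 3 fell, where 23.7% of all tested features fell. They were ATF4, its partner CEBPG (-1.66, SE 0.07) and the asparagine synthetase gene ASNS (-0.50, SE 0.05). EIF2AK3 and EIF2S1 did not pass. Whether the carriers fell through ATF4 was not tested.

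Ion exchangers and cotransporters gave 7 falls, 2 rises and 7 genes that did not pass among 16 tested, with a median of -0.20, the lowest of the 8 classes. Of all tested features 23.7% fell and 22.6% rose. Scaled by library size alone, the exchanger class had 10 falls and 1 rise, where 4119 of all 10079 features fell and 1272 rose. The sodium/proton exchangers of family 9 raise the pH of the cytosol or set that of Golgi and endosomes, and SLC9A5, SLC9A8 and SLC9A9 fell.

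SLC9A5 (chromosome 11, 1326326 to 1335715) had 2.19 and 2.52 CPM in the CAP-H off libraries, against 9.50, 8.33 and 8.26 CPM in the CAP-H on libraries. This was the largest fall of any tested carrier, 3.71-fold, at -1.89 (SE 0.23, adjusted p = 5.6e-06). SLC9A8 of the Golgi had 58.1 and 53.5 CPM in the CAP-H off libraries and 67.3, 68.6 and 63.8 CPM in the CAP-H on libraries (-0.25, SE 0.07, adjusted p = 0.0061). SLC9A9 of endosomes had 26.9 and 24.2 CPM in the CAP-H off libraries and 36.3, 29.1 and 28.9 CPM in the CAP-H on libraries (-0.31, SE 0.12, adjusted p = 0.043). Neither of these calls held when CAP-H off replicate 3 was left out (SLC9A8 -0.19, adjusted p = 0.11, and SLC9A9 -0.23, adjusted p = 0.18), and SLC9A9 also lost its call without CAP-H on replicate 1 (-0.18, adjusted p = 0.23), by DESeq2 and with a filter of 5 CPM.

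The scaffold gene SLC9A3R1, which encodes the protein that anchors exchangers to the actin cytoskeleton (chromosome 18, 10711116 to 10718409), went the other way. It had 80.3 and 92.7 CPM in the CAP-H off libraries, against 50.1, 47.4 and 52.3 CPM in the CAP-H on libraries, a rise of 0.79 (SE 0.07, adjusted p = 2.9e-07).

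SLC24A4, an exchanger of sodium for calcium and potassium (chromosome 5, 43921838 to 44001450), had 10.8 and 11.2 CPM in the CAP-H off libraries, against 26.5, 23.4 and 25.02 CPM in the CAP-H on libraries. The change was -1.18 (SE 0.13, adjusted p = 1.7e-06), with both CAP-H off libraries well under every CAP-H on library. Its paralogue SLC24A5, which acts in pigment granules and the trans-Golgi, rose by 0.29 (SE 0.07, adjusted p = 0.0048), but it overlaps MYEF2. Its call ended when CAP-H off replicate 3 was left out (0.24, adjusted p = 0.061) and under library size alone (0.11, adjusted p = 0.27). SLC12A7, a potassium chloride cotransporter, fell by 0.33 (SE 0.05, adjusted p = 0.00011), and SLC26A5, the gene of the hair cell motor protein prestin, fell by 0.37 (SE 0.07, adjusted p = 0.00029). The bicarbonate carriers SLC4A2, SLC4A4 and SLC4A7 and the chloride cotransporters SLC12A1, SLC12A2 and SLC12A3 did not pass, nor did SLC24A1. Of these, SLC4A7 had 266 and 268 CPM in the CAP-H off libraries and 304, 285 and 282 CPM in the CAP-H on libraries (-0.12, SE 0.06, adjusted p = 0.13).

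**Figure D3:**
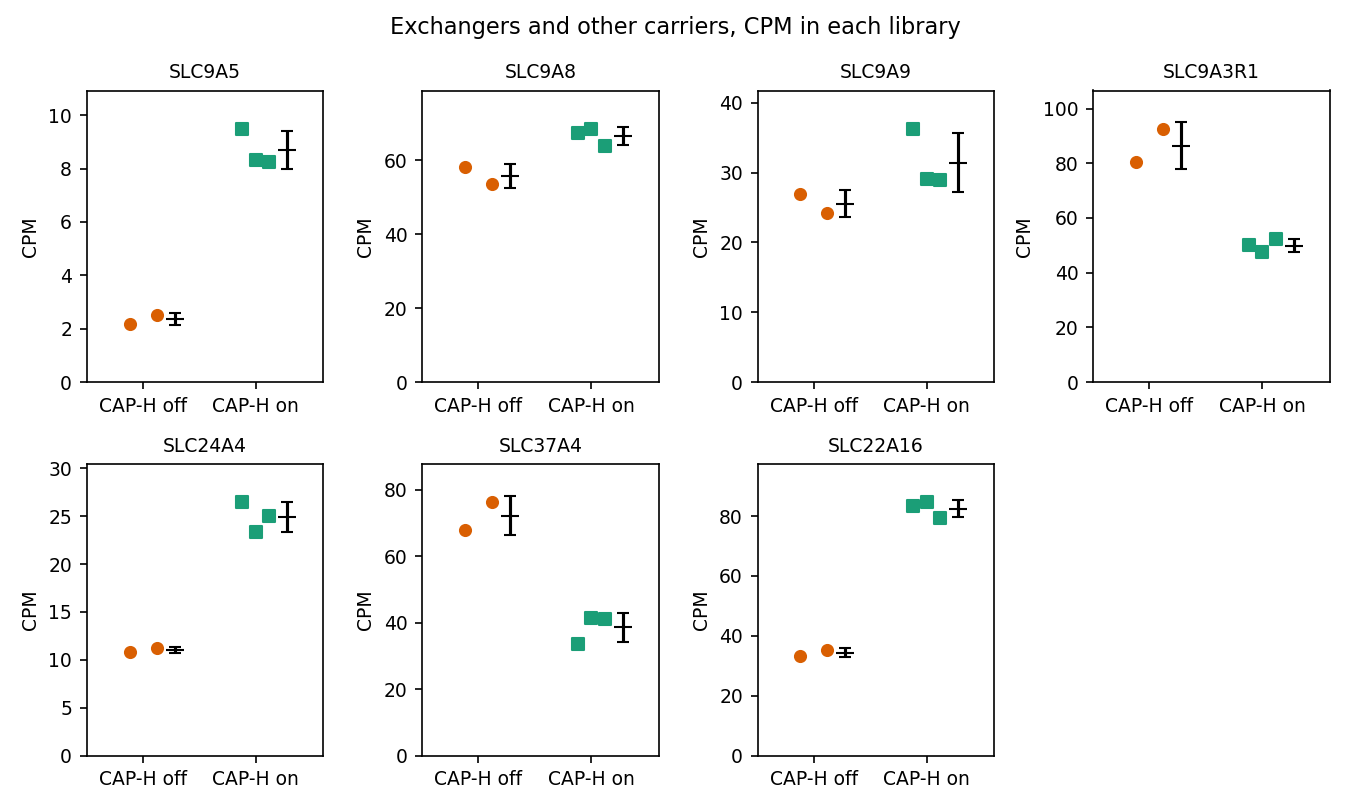
CPM in each library for the family 9 exchangers SLC9A5, SLC9A8 and SLC9A9, the scaffold gene SLC9A3R1, SLC24A4, SLC37A4 and SLC22A16, 1 panel per gene with its own axis from 0, orange circles for the 2 CAP-H off libraries, green squares for the 3 CAP-H on libraries and black bars for mean ± SD. The CAP-H off libraries lie under the CAP-H on libraries in 5 of the 7 panels and above them for SLC9A3R1 and SLC37A4.

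Most mitochondrial carriers of family 25 did not pass, and more of them rose than fell. Of 23 tested genes 7 rose, 2 fell and 14 did not pass, with a median of 0.12, where 22.6% of all features rose and 23.7% fell. Scaled by library size alone, the family had 6 rises and 3 falls, where 1272 of all 10079 features rose and 4119 fell. The rises include the carriers that bring phosphate into the matrix and exchange ADP for ATP, both substrates of ATP synthesis. Summed over the family, levels were 3889 and 3986 CPM in the CAP-H off libraries, against 3059, 3180.3 and 3185 CPM in the CAP-H on libraries.

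SLC25A6, an ADP/ATP exchanger (chromosome 1, 128508693 to 128511177), had 1327 and 1369 CPM in the CAP-H off libraries, against 849, 854 and 866 CPM in the CAP-H on libraries. It rose 1.57-fold (0.65, SE 0.04, adjusted p = 3.8e-09), with the groups far apart. SLC25A3, the phosphate carrier (chromosome 1, 46514909 to 46522802), had 949 and 1001.5 CPM in the CAP-H off libraries, against 678, 760.2 and 750.1 CPM in the CAP-H on libraries (0.42, SE 0.05, adjusted p = 1.2e-05). Without this pair the family summed to 1613 and 1616 CPM in the CAP-H off libraries, against 1532, 1566 and 1569 CPM in the CAP-H on libraries. Most of the rise in the family sum thus lay in these genes. The pair was taken from the genes that rose, so the sums describe where the rise lies and test nothing.

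SLC25A14, a brain mitochondrial carrier related to the uncoupling proteins (chromosome 4, 1536609 to 1543496), had 104 and 111 CPM in the CAP-H off libraries, against 65.5, 69.8 and 67.2 CPM in the CAP-H on libraries (0.67, SE 0.06, adjusted p = 1.6e-07). Its close relative SLC25A30 had 38.5 and 36.2 CPM in the CAP-H off libraries, against 25.01, 22.3 and 24.8 CPM in the CAP-H on libraries (0.63, SE 0.10, adjusted p = 6.4e-05). SLC25A20, which carries acylcarnitines into the matrix for fatty acid oxidation, had 71.3 and 68.6 CPM in the CAP-H off libraries, against 50.5, 51.5 and 45.8 CPM in the CAP-H on libraries (0.50, SE 0.07, adjusted p = 2.6e-05). These 3 genes kept groups that did not overlap and passed under every alternative tried. SLC25A15, the ornithine carrier of the urea cycle, rose by 0.32 (SE 0.06, adjusted p = 0.00026). SLC25A36, a carrier of pyrimidine nucleotides, rose by 0.13 (SE 0.05, adjusted p = 0.049). It lay at the threshold and lost its call under most alternatives, each CAP-H off library left out among them (0.12, adjusted p = 0.27 without replicate 1, and 0.15, adjusted p = 0.13 without replicate 3), and turned to -0.05 with library size alone.

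The 2 genes that fell were SLC25A13, the carrier of aspartate and glutamate in the malate-aspartate shuttle, and SLC25A46, a protein of the outer membrane that acts in mitochondrial dynamics. SLC25A13 (chromosome 2, 24256192 to 24329555) had 287 and 259.6 CPM in the CAP-H off libraries, against 334, 339 and 338 CPM in the CAP-H on libraries (-0.30, SE 0.06, adjusted p = 0.0011). SLC25A46 had 26.8 and 21.8 CPM in the CAP-H off libraries, against 30.5, 32.4 and 34.1 CPM in the CAP-H on libraries (-0.40, SE 0.11, adjusted p = 0.0066), a call that ended when CAP-H off replicate 3 was left out (-0.26, adjusted p = 0.10). The iron carriers SLC25A28 and SLC25A37, the citrate carrier SLC25A1, the glycine carrier SLC25A38 and SLC25A39 were among those that did not pass. The 14 genes ran from -0.18 for SLC25A39 to 0.31 for SLC25A37.

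**Figure D4:**
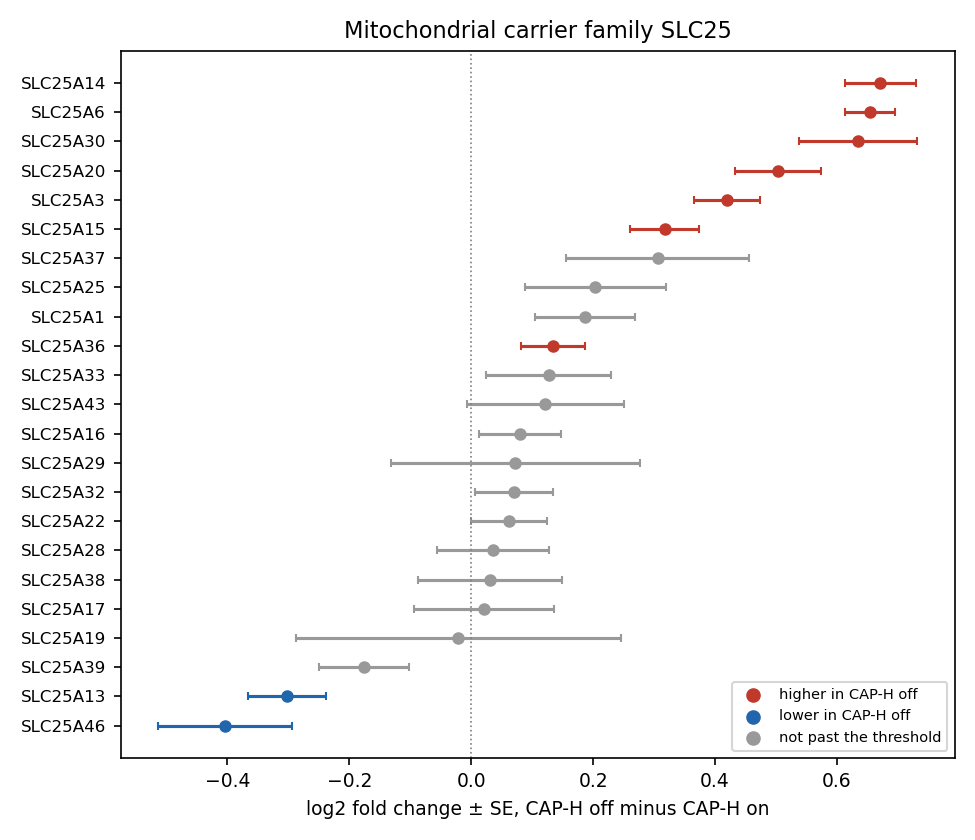
Log2 fold change ± SE (CAP-H off minus CAP-H on) of the 23 tested genes of the mitochondrial carrier family SLC25, ordered from highest to lowest, with red for genes that rose, blue for genes that fell and grey for the rest. SLC25A14, SLC25A6 and SLC25A30 lie between 0.63 and 0.67, and SLC25A46 and SLC25A13 at -0.40 and -0.30.

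Mitochondrial channels and carriers with other symbols were mixed, where 22.6% of all tested features rose and 23.7% fell. Of 10 tested genes on that list 3 rose, 2 fell and 5 did not pass, against 1 rise and 5 falls under library size alone. That scaling gave 1272 rises and 4119 falls among all 10079 features. The rises numbered 1 when CAP-H off replicate 3 or CAP-H on replicate 2 was left out, and the falls numbered 1 when CAP-H off replicate 1 was left out. The sideroflexin gene SFXN4 rose by 0.71 (SE 0.07, adjusted p = 3.0e-07), while LETM1, of cation exchange in the inner membrane, fell by 0.24 (SE 0.06, adjusted p = 0.0026) and MICU2, a regulator of the calcium uniporter, fell by 0.35 (SE 0.09, adjusted p = 0.0050). The outer membrane channel gene VDAC2 did not pass (0.12, SE 0.07, adjusted p = 0.20).

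Carriers of nucleotide sugars bring activated sugars into the endoplasmic reticulum and Golgi for glycosylation. The class takes families 35 and 33 whole, by number, and some of its members, such as SLC35F2 and SLC33A1, carry other solutes. Of the 14 tested genes of families 35 and 33, 6 rose, 2 fell and 6 did not pass, with a median of 0.17. Among all tested features 22.6% rose and 23.7% fell. Scaled by library size alone, families 35 and 33 had 2 rises and 3 falls, where 1272 of all 10079 features rose and 4119 fell. SLC35F2 (chromosome 1, 179678151 to 179696190), a carrier of queuine in mammals, had 78.8 and 67.6 CPM in the CAP-H off libraries, against 44.8, 48.2 and 48.1 CPM in the CAP-H on libraries (0.64, SE 0.08, adjusted p = 4.3e-06). It overlaps an unnamed feature, whose reads cannot be separated from it. SLC35D1, which carries UDP-sugars into the endoplasmic reticulum, had 136 and 135 CPM in the CAP-H off libraries, against 112, 97.7 and 105 CPM in the CAP-H on libraries (0.37, SE 0.06, adjusted p = 9.4e-05).

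SLC35A1, the carrier of CMP-sialic acid, rose by 0.39 (SE 0.10), SLC35G2 by 0.39 (SE 0.12), SLC35C2 by 0.31 (SE 0.08) and SLC35E1 by 0.17 (SE 0.05). These 4 calls were lost with library size alone, where SLC35E1 turned to -0.01 (adjusted p = 0.85). The call of SLC35G2 ended when CAP-H off replicate 3 was left out (0.27, adjusted p = 0.16). The call of SLC35E1 ended when CAP-H off replicate 1 (0.19, adjusted p = 0.064), CAP-H off replicate 3 (0.14, adjusted p = 0.17) or CAP-H on replicate 2 (0.15, adjusted p = 0.063) was left out. SLC33A1, which brings acetyl-CoA into the endoplasmic reticulum, had 101 and 103 CPM in the CAP-H off libraries, against 121, 126 and 131 CPM in the CAP-H on libraries (-0.30, SE 0.05, adjusted p = 0.00028). SLC35E3, a paralogue of SLC35E1, fell by 0.22 (SE 0.05, adjusted p = 0.0025). SLC35A3, SLC35B1, SLC35B3, SLC35B4, SLC35C1 and SLC35F5 did not pass, with values from -0.15 to 0.23.

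Of 13 tested sugar and monocarboxylate carriers 3 fell, 1 rose and 9 did not pass, with a median of 0.06. Among all tested features 23.7% fell and 22.6% rose. SLC2A1, the basal glucose carrier (chromosome 21, 6448908 to 6459180), had 22.3 and 24.8 CPM in the CAP-H off libraries, against 31.4, 33.4 and 32.8 CPM in the CAP-H on libraries (-0.47, SE 0.10, adjusted p = 0.0012). SLC16A1, which exports lactate with a proton (chromosome 26, 3552667 to 3567608), had 375 and 416 CPM in the CAP-H off libraries, against 467, 481 and 501 CPM in the CAP-H on libraries (-0.29, SE 0.06, adjusted p = 0.0013). SLC5A10, a sodium-coupled sugar carrier, had 2.45 and 1.68 CPM in the CAP-H off libraries, against 7.73, 7.37 and 6.61 CPM in the CAP-H on libraries (-1.80, SE 0.25, adjusted p = 2.6e-05), and it overlaps an unnamed feature.

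SLC37A4, which takes glucose 6-phosphate into the endoplasmic reticulum (chromosome 24, 5660909 to 5668726), had the largest rise among carriers with a mean of at least 5 CPM. It stood at 68.1 and 76.3 CPM in the CAP-H off libraries, against 33.6, 41.3 and 41.1 CPM in the CAP-H on libraries, 1.88-fold higher (0.91, SE 0.09, adjusted p = 7.0e-07). The glucose and inositol carriers SLC2A8, SLC2A13 and SLC2A14 had changes of 0.19, 0.06 and -0.14 that did not pass. The membrane chaperone gene BSG, whose product brings SLC16A1 to the cell surface, rose by 0.40 (SE 0.05, adjusted p = 1.2e-05), and the related EMB did not pass (adjusted p = 0.96). The sodium pump, which sets the gradient that sodium-coupled carriers use, had a rise of its beta subunit genes ATP1B3 (0.29, SE 0.06, adjusted p = 0.00061) and ATP1B1 (0.55, SE 0.17, adjusted p = 0.013). ATP1B3 overlaps GRK7, and ATP1B1 overlaps an unnamed feature. On the list of the sodium pump and these chaperones 3 of 5 genes rose and 0 fell, against 1 rise and 1 fall under library size alone. That scaling gave 1272 rises and 4119 falls among all 10079 features. In the main test 22.6% of all features rose and 23.7% fell.

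Metal ion carriers mostly did not pass. Of 10 tested genes 2 rose, 1 fell and 7 did not pass, against 1 rise and 4 falls under library size alone. That scaling gave 1272 rises and 4119 falls among all 10079 features. In the main test 22.6% of all features rose and 23.7% fell. The zinc importers of family 39 went different ways. SLC39A6 had 138 and 145 CPM in the CAP-H off libraries, against 192, 196 and 188 CPM in the CAP-H on libraries (-0.45, SE 0.06, adjusted p = 2.6e-05). SLC39A13, a zinc carrier of internal membranes, had 36.9 and 33.3 CPM in the CAP-H off libraries, against 24.96, 23.4 and 23.1 CPM in the CAP-H on libraries (0.55, SE 0.10, adjusted p = 0.00025). SLC39A10 rose by 0.22 (SE 0.07, adjusted p = 0.016), a call that ended when CAP-H off replicate 1 (0.21, adjusted p = 0.086), CAP-H off replicate 3 (0.22, adjusted p = 0.063), CAP-H on replicate 1 (0.19, adjusted p = 0.050) or CAP-H on replicate 2 (0.19, adjusted p = 0.070) was left out, and that did not pass under library size alone (adjusted p = 0.70). The zinc carriers of the secretory pathway, SLC30A5, SLC30A6 and SLC30A7, had -0.12, 0.24 and -0.01 and did not pass.

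Of 9 tested nucleoside, vitamin and choline carriers 2 rose, 3 fell and 4 did not pass, against 0 rises and 4 falls under library size alone. That scaling gave 1272 rises and 4119 falls among all 10079 features. In the main test 22.6% of all features rose and 23.7% fell. SLC23A2, a sodium-coupled carrier of ascorbate, had 26.7 and 30.9 CPM in the CAP-H off libraries, against 47.5, 46.4 and 43.9 CPM in the CAP-H on libraries (-0.68, SE 0.09, adjusted p = 1.5e-05). Both tested nucleoside carriers of family 29 fell, SLC29A1 of the cell surface by 0.42 (SE 0.06, adjusted p = 3.4e-05) and SLC29A3 of lysosomes by 0.29 (SE 0.09, adjusted p = 0.011). SLC29A1 overlaps an unnamed feature, and the call of SLC29A3 ended when CAP-H off replicate 1 was left out (-0.26, adjusted p = 0.084). SLC19A1, the reduced folate carrier, had 242 and 281 CPM in the CAP-H off libraries, against 208, 213 and 211 CPM in the CAP-H on libraries (0.31, SE 0.07, adjusted p = 0.0017), and it overlaps COL18A1 and PCBP3. SLC44A1, a choline carrier, rose by 0.54 (SE 0.16, adjusted p = 0.011) and did not pass when CAP-H off replicate 1 was left out (0.52, adjusted p = 0.056).

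Among the 8 tested carriers of lipids, bile acids, organic ions and other solutes, 1 rose, 1 fell and 6 did not pass. The shares over all tested features were 22.6% for rises and 23.7% for falls. The 2 called genes, SLC22A16 and SLC22A15 of the organic ion family, moved in opposite directions. SLC22A16, a carnitine carrier (chromosome 3, 65931798 to 65962884), had 33.4 and 35.4 CPM in the CAP-H off libraries, against 83.4, 84.7 and 79.4 CPM in the CAP-H on libraries. It was 2.40-fold lower (-1.26, SE 0.07, adjusted p = 9.0e-10). SLC22A15 had 3.88 and 4.11 CPM in the CAP-H off libraries, against 1.33, 2.59 and 1.49 CPM in the CAP-H on libraries (1.17, SE 0.33, adjusted p = 0.0082), the only carrier that rose at least 2-fold.

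**Figure D5:**
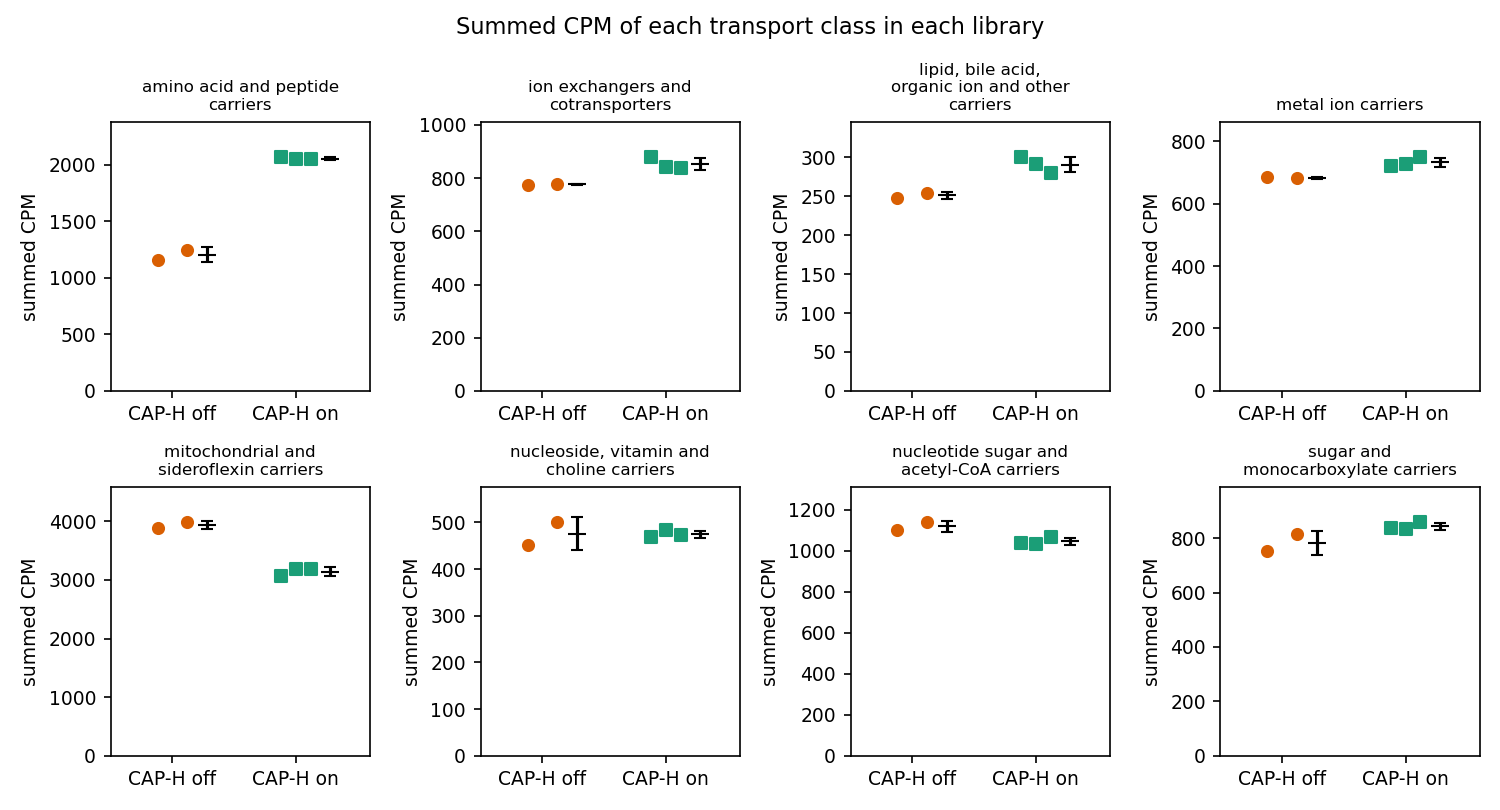
Summed CPM of all members of each of the 8 transport classes, 1 panel per class with its own axis from 0, orange circles for the 2 CAP-H off libraries, green squares for the 3 CAP-H on libraries and black bars for mean ± SD. The CAP-H off sums are 1156 and 1249.5 CPM for amino acid and peptide carriers against 2047 to 2066 CPM in the CAP-H on libraries, and the sums of nucleoside, vitamin and choline carriers overlap between groups.

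Over all 179 genes the summed level was 9057 and 9405 CPM in the CAP-H off libraries, against 9363, 9447 and 9496 CPM in the CAP-H on libraries, where 1 CAP-H off library lay within the CAP-H on range. As a share of all counts, without TMM factors, they held 0.84% and 0.871% in the CAP-H off libraries, against 0.998%, 0.985% and 0.99% in the CAP-H on libraries, and the groups did not overlap. The amino acid class was lower and the mitochondrial class higher by similar amounts, on average 1203 ± 66.5 CPM in the CAP-H off libraries against 2055 ± 10.1 CPM in the CAP-H on libraries for amino acid carriers, and 3938 ± 68.9 CPM against 3142 ± 71.5 CPM for mitochondrial carriers (SD, n = 2 and n = 3). These are sums of levels, without a test, in which the most highly counted genes weigh most.

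Neighbours of the changed carriers on the chromosome went both ways or did not pass. Of 43 tested features that lay nearest to a changed carrier on either side and within 10000 bases, 11 changed in the same direction, 6 in the opposite direction and 26 did not pass, where 46.3% of all features changed. SLC7A1 and MTUS2, which lies 7770 bases away, moved in opposite directions (MTUS2 1.95, adjusted p = 4.4e-06). SLC23A2 and RASSF2, 7852 bases apart, both fell (RASSF2 -1.24, adjusted p = 3.1e-10), as did SLC9A5 and FHOD1, 1133 bases apart (FHOD1 -0.94, adjusted p = 2.0e-04). Whether these pairs fell separately was not tested.

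The authors' deposited table, which does not state the direction of its comparison, lists 35 of these carriers, 12 with a positive and 23 with a negative log2 fold change. Of the 35, 34 were tested here, all 34 with the same sign and past the threshold, and 11 carriers called here are absent from it. For SLC7A5 the authors' deposited table gives a log2 fold change of -1.29, and for SLC25A6 it gives 0.56. The remaining carrier, SLC13A3, which takes up dicarboxylates, had too few counts to be tested here, with 5 counts in each CAP-H off library and 1 or 2 in the CAP-H on libraries.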

How the data were processed

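The authors deposited a whole-number count for each RefSeq transcript, with coordinates on galGal4, per the file headers and the submitters' processing notes, which list FastQC, Bowtie, TopHat2 2.0.8b and edgeR 3.2.3 without roles. For counter, strand setting and filters the sources used here give nothing, and the smallest deposited count is 1. The authors' deposited table of called transcripts gives log2 fold changes, a likelihood ratio score, p-values and adjusted p-values, per the file headers, and only the log2 fold changes and adjusted p-values were used.

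Rows with the same interval, or the same identifier and counts, were merged, which left 16143 of 17036. Symbols came from a RefSeq table of GRCg7b, matched by accession without version (8905 rows). Of the carriers, 13 overlap another feature, and without strand their reads cannot be separated. Counts were tested with edgeR 4.0.16 (R 4.3.3) by glmQLFit and glmQLFTest after filterByExpr and TMM scaling, over 10079 features with Benjamini-Hochberg adjustment at 0.05. CPM uses the TMM factors. The SE is the log2 fold change over the square root of F. Alternatives were RLE factors, library size alone, DESeq2 1.42.0, edgeR's exact test, no filter, a filter of 5 CPM, 1 subtracted from each count, the replicate block and each library left out.

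Families were grouped into 8 classes. Some genes counted in the totals are not reported here by name. Values are given for the 12 largest rises and falls with at least 5 CPM, the 3 lowest p-values per class, the ATF4 list, opposed paralogues and the 3 lowest p-values per partner list, and further genes were chosen after their values were seen. The part of the rule on levels per coding length could not be applied, since no lengths were used, and levels were not ranked across genes. The members and lists were chosen with earlier results of these data known. Counting intervals and floors cover counting error only.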

Additional observations from a re-analysis of the deposited data

How the results depend on the processing

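Of the 45 changed carriers, 31 (12 higher, 19 lower) kept direction and call under all 13 alternatives in which they could be tested, the 4 amino acid carriers, SLC25A6, SLC25A3, SLC25A14 and SLC37A4 among them. With scaling by library size alone 12 carriers rose and 36 fell, as did 1272 and 4119 of all features, and the median of the carriers moved to -0.15. SLC25A36 turned to -0.0487 and SLC35E1 to -0.0139 there. By class this scaling gave 0 rises and 7 falls of amino acid carriers, 1 rise of exchangers, 1 rise and 4 falls of metal carriers, 0 rises of nucleoside and vitamin carriers and 2 rises of nucleotide sugar carriers. On the partner lists it gave 1 rise and 1 fall for the sodium pump list, 1 and 5 for mitochondrial channels, 0 and 3 for the vacuolar proton pump (2 rises and 0 falls with TMM), 1 rise of carriers under other symbols (4 rises and 6 falls with TMM) and 5 falls for the ATF4 list.

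The exact test and the filter of 5 CPM gave 2 rises of amino acid carriers, and that filter gave 0 rises of lipid and organic ion carriers because SLC22A15 falls under it. Without a filter 1 metal carrier, 1 mitochondrial channel and 0 proton pump genes rose, and DESeq2 and the exact test gave 1 rise of a proton pump gene.

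Leaving out 1 library at a time, rises numbered 0 to 1 for amino acid carriers, 1 to 3 for exchangers, 1 to 2 for metal carriers, 1 to 2 for nucleoside and vitamin carriers, 1 to 2 for sugar carriers, 1 to 3 for mitochondrial channels and 0 to 1 for the proton pump. Falls numbered 1 to 2 for mitochondrial channels and 3 to 7 for carriers under other symbols, and the median log2 fold change of tested SLC members ran from -0.01 to 0.0397. Where this leaves 1 CAP-H off library, that library is assumed to vary like the others.

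Deviations of same-numbered libraries correlated at -0.01 (replicate 1) and -0.03 (replicate 3). Across numbers the values were 0.03 (CAP-H off replicate 1 with CAP-H on replicate 3) and 0.01 (CAP-H off replicate 3 with CAP-H on replicate 1). CAP-H off replicates 1 and 3 are the only libraries of their group, so their deviations mirror each other. Whether same-numbered libraries shared a culture or batch cannot be decided from these correlations. With the replicate block 18 carriers rose and 23 fell, and 41 of the 45 calls remained. The block gave 1 rise each of metal carriers and mitochondrial channels and 0 of proton pump genes. Depth limits the 68 untested carriers and those of a few CPM.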

Other observations

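Transport genes without an SLC symbol were also measured. MFSD2A, a carrier of lysophospholipids with docosahexaenoic acid, rose with a log2 fold change of 1.05 (SE 0.10; edgeR's quasi-likelihood test, adjusted p = 3.9e-07), with a mean of 44.3 CPM in the CAP-H off libraries and 21.4 CPM in the CAP-H on libraries. UNC93B1, which escorts nucleic acid sensing Toll-like receptors to endosomes, fell (adjusted p = 0.00050), with means of 7.28 CPM in the CAP-H off libraries and 14.4 CPM in the CAP-H on libraries. MFSD14A rose by 0.32 (SE 0.06, adjusted p = 0.00030), and the lysosomal cystine exporter CTNS fell by 0.40 (SE 0.13, adjusted p = 0.019). Of 14 tested carriers under other symbols 4 rose, 6 fell and 4 did not pass. Among all tested features 22.6% rose and 23.7% fell. Of 8 tested genes of the vacuolar proton pump 2 rose, ATP6AP1 by 0.17 (SE 0.06, adjusted p = 0.033) and ATP6V1E1 by 0.23 (SE 0.08, adjusted p = 0.032), and 6 did not pass. Neither rise held with library size alone. CTNS overlaps SHPK, whose reads cannot be separated from it, and was named after its values were seen.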
